A study of Mus musculus with 10 samples.

Results

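The 61 genes described here carry the names of gene families tied to interferon, out of 6610 gene symbols in the deposited table. They are the symbols that begin with Gbp, Ifi, Irf followed by a digit, Irgm, Isg, Oas, Parp, or Stat or Trim followed by a digit, with Mx1, Mx2 and Rtp4 where listed. A name, not a response to interferon, chose them. Of the 61, 53 passed the filter on low values and could be tested, 7 Stat, 8 Irf, 2 Irf2bp, 5 Gbp, 5 Ifi with 3 Ifitm, Ifih1 and Ifit2, 2 Isg, 4 Parp, 11 Trim and Irgm1, Mx1, Oasl2 and Rtp4. The other 8, among them Ifi202b, Ifitm5 and several Trim genes, were too low. The table lists 60 of the 160 protein-coding genes that RefSeq names in this way, so each family is seen in part, and genes outside the table were not analysed here.

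B cells were taken from the spleens of inbred C57BL/6 mice, and their RNA was measured in 5 groups of 2 libraries. Naive cells were resting. The groups div0 and div12 were activated by a pulse of anti-IgM, which binds the antigen receptor, with anti-CD40, which stands in for T cell help. At 48 h the cells that had not divided gave div0 and those that had gave div12. For Phase II, div12 cells were kept for a further 48 h in 0.12 µg/ml of antibody against CD40 and sorted by flow cytometry into cells that did not divide again, div12_48_u, and cells that did, div12_48_d. No interferon was added in any group, as far as the labels say. Phase I libraries were independent pools of 4 to 5 mice, and whether Phase II libraries were pools is not given in the sources used here, so p-values there may measure technical spread. RNA came from 1000000 cells in Phase I and 500000 in Phase II, so phase, time in culture and cell input cannot be told apart. No group was cultured without activation, so activation and culture cannot be told apart in comparisons with naive cells.

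Interferons are secreted proteins that warn cells of viruses and bacteria. Type I and type III interferons act through JAK kinases on STAT proteins, which join IRF9 and bind the interferon-stimulated response element (ISRE) of target genes, and interferon gamma acts through STAT dimers at the gamma-activated site (GAS). The targets include RNA and DNA sensors, GTPases that attack the vacuoles of microbes, proteins that block viral entry or translation, and the genes for STAT and IRF proteins themselves, some of which B cells also use outside infection, as with IRF4 and IRF8 in B cell and plasma cell fate.

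Values are TPM (transcript abundance per length, as a share of the library), which adds up to one total in every library, so levels may be compared between genes. Differences between groups were taken after log2(TPM + 1) and are followed by the standard error; for genes of low level that scale makes a change look smaller. The words rose and fell, or called, stand for a limma p, adjusted by Benjamini-Hochberg over the 4427 genes tested, under 0.05. Paired values are replicate 1 and replicate 2. Comparisons that share a group share its 2 libraries and are not independent. A low div12 value, for instance, enters both a fall against naive cells and a rise in Phase II against div12. Sequencing depth is unknown. In bulk RNA, fewer cells of a type and less RNA per cell cannot be told apart.

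Genes of B cells were abundant in every library (the summed level of 10 listed markers was 41384 to 76889 TPM, of which Cd74 alone was 20851 to 47705 TPM). Against naive cells 5 of these 10 markers fell in div0 and 9 in div12, and 0 rose in either. Markers of myeloid, NK and erythroid cells were higher, in sum, in naive libraries. The summed level of 20 listed myeloid markers was 1128 and 3393 TPM in naive cells and 125 to 466 TPM in the 8 cultured libraries, where the macrophage gene C1qa was at 0. Of 18 tested myeloid markers 17 fell in div0 and 15 in div12 against naive. Of 7 tested NK cell markers all 7 fell in both comparisons, from a sum of 123 and 176 TPM to between 4.13 and 8.44 TPM in cultured libraries. The sum of 9 erythroid markers went from 2810 and 3452 TPM to between 38.0 and 79.0 TPM, and 9 of 9 fell in both. The sum of 11 T cell markers was 208 and 233 TPM in naive cells and 156 to 190.1 TPM in Phase I, and 8 of 11 fell in div0. In Phase II it was 390.3 to 540.4 TPM, most of it Lck, while Cd3e was at most 0.345 TPM in every cultured library. The sum of 6 plasmacytoid dendritic cell markers, nearly all Ly6d, was 4656 and 4883 TPM in naive cells and 5221 to 8992 TPM in cultured ones. Of these 6 markers 1 rose and 3 fell in div0 against naive cells, and likewise in div12, so the sum does not stand for the set. Another 6 markers, of plasma cells, summed to 2041 and 874 TPM in naive cells and 389 to 465 TPM in Phase I. Irf4, itself a member, is on that list and was 1682 and 308 TPM of the naive sums and 230 to 311 TPM of those in Phase I. Naive replicates also differed most from each other, with 340 of the tested genes over 2-fold apart. The part of these markers in the comparisons with naive cells was not tested.

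Against naive cells the families split. In div0 against naive cells 5 members rose and 23 fell, 28 of 53 called, where 54.9% of all tested genes were called (15.4% higher and 39.6% lower). In div12 against naive cells 6 rose and 30 fell, 36 of 53, where 66.9% of all genes were called (19.4% higher and 47.5% lower). The shares of members called were thus near the background in both. The median member stood at -0.31 in div0 and -0.56 in div12, beside -0.24 and -0.35 over all tested genes. Median-ratio scaling, which sets the median of all genes to 0.00, gave 14 higher and 14 lower members in div0 and 15 and 18 in div12. Quantile normalization gave 14 and 15, and 12 and 19. Directions of small size are therefore read relative to the median gene, and the larger changes named below kept their direction under both scalings except where stated.

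**Figure D1:**
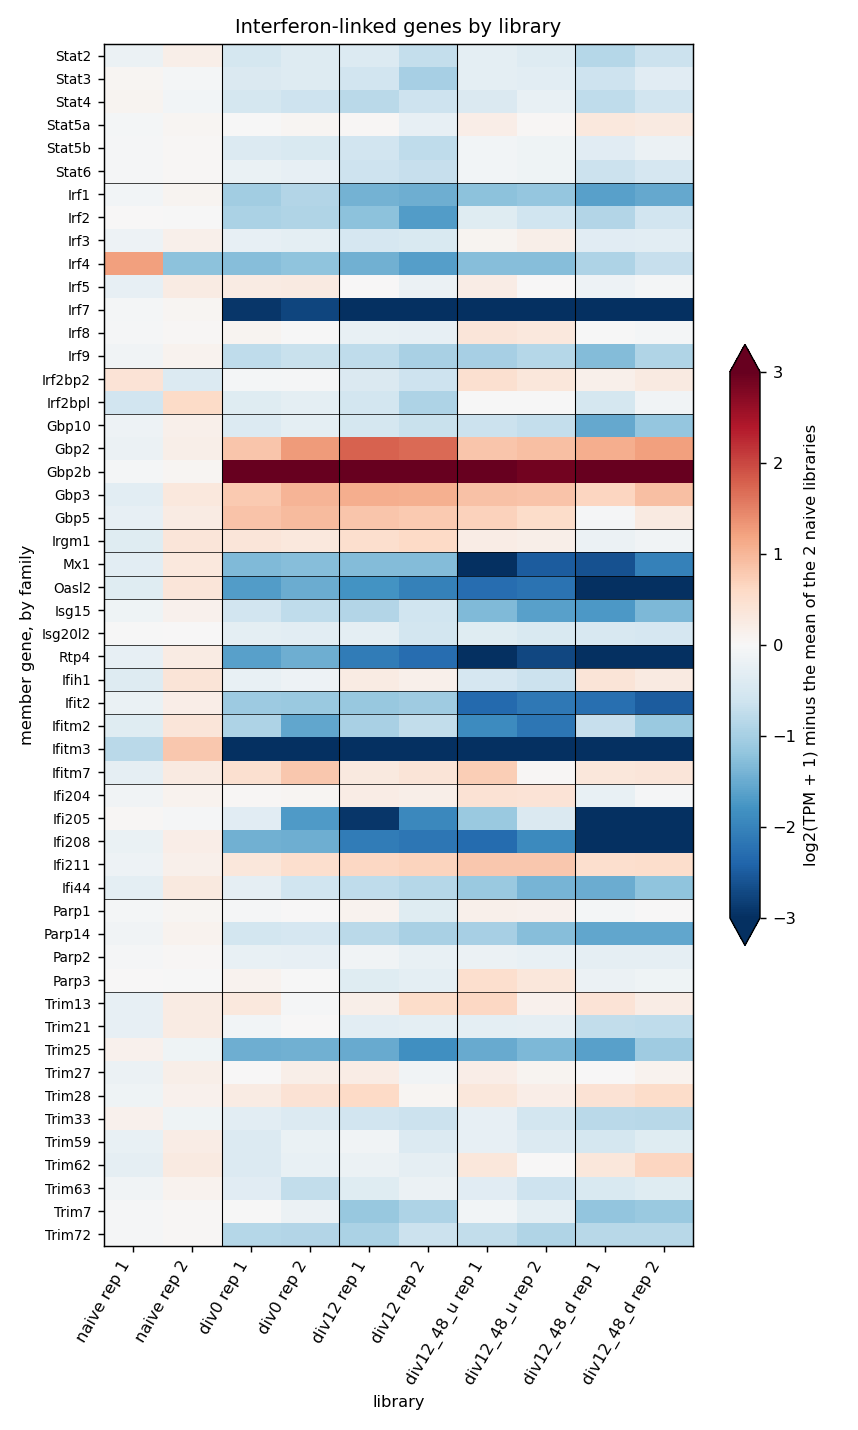
Heat map of the tested members described (rows, grouped by family) in the 10 libraries (columns). Colour is log2(TPM + 1) minus the mean of the naive libraries of that gene, red higher and blue lower, capped at the ends of the scale. Most Gbp rows are red in cultured libraries, and the rows of Irf7, Ifitm3, Oasl2, Rtp4 and Mx1 are blue.

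After the second culture fewer members moved, and in both directions. In div12_48_u against div12 11 members rose and 7 fell (18 of 53, where 41.3% of all genes were called, 27.7% higher and 13.6% lower). Median-ratio scaling gave 8 and 13, and quantile normalization 8 and 10. In div12_48_d against div12 2 rose and 12 fell (14 of 53, where 15.9% of all genes were called, 11.9% higher and 4.09% lower). That count was 8 without div12 replicate 1, 6 without div12 replicate 2, and 7 without either div12_48_d library. Marker genes moved in Phase II too. The 6 plasma cell markers, Irf4 among them, summed to 425 and 389 TPM in div12, 458 and 480.1 TPM in div12_48_u and 972 and 1193 TPM in div12_48_d, where 3 of 6 rose against div12 and 3 of 6 against div12_48_u. Jchain, the joining chain of secreted antibody, went from 8.10 and 19.5 TPM in div12 to 378 and 464 TPM in div12_48_d. Of 18 myeloid markers 2 rose in each Phase II group against div12, the macrophage gene Adgre1 in both (29.3 and 43.5 TPM in div12, 108 and 103 TPM in div12_48_u and 139 and 204 TPM in div12_48_d). The list was mixed. In Phase II C1qa was at 0 and Csf1r at most 0.158 TPM, while Sirpa stood at 120 and 134 TPM in div12_48_d, beside 52.9 and 50.6 TPM in div12. Of 11 T cell markers 1 rose in div12_48_u and 3 in div12_48_d. Beside these marker counts, 27.7% of all tested genes rose in div12_48_u and 11.9% in div12_48_d against div12. In div12_48_d against div12_48_u 12.2% rose. The part of these markers in the Phase II comparisons was not tested.

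The F test over the 5 groups called 39 of 53 members, where 71.6% of all genes were called. Of the 53, 33 (62.3%) had their highest group mean in naive cells, beside 49.6% of all tested genes, and 22 (41.5%) their lowest in div12_48_d, beside 16.4%.

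The STAT genes encode the transcription factors that carry cytokine signals to the nucleus. Stat6, the factor of interleukin 4 signals, moved with division. Its level was 394 and 414 TPM in naive cells, 351 and 341 TPM in div0, 261 and 251 TPM in div12, 382 and 369.8 TPM in div12_48_u and 258 and 283 TPM in div12_48_d. The 4 libraries of divided cells were the lowest of the 10, with no overlap. Against naive cells Stat6 fell in div12 (-0.66 ± 0.08, adjusted p = 0.000124). The smaller fall in div0 (-0.22 ± 0.08, adjusted p = 0.0341) turned to 0.04 with median-ratio scaling and was lost without naive replicate 2 (adjusted p = 0.0937) or one of the div0 libraries (adjusted p = 0.10 and 0.160). In div12_48_u it rose against div12 by 0.55 ± 0.08 (adjusted p = 0.000949). Among the other STAT genes, Stat5b rose in div12_48_d against div12 by 0.40 ± 0.10 (adjusted p = 0.0253), from 94.4 and 83.6 to 111 and 125 TPM, a call lost without div12 replicate 2 (adjusted p = 0.137), div12_48_d replicate 2 (adjusted p = 0.182) or either div0 library (adjusted p = 0.0547 and 0.0547) and with the most abundant transcript (adjusted p = 0.173). As a family, 5 of 7 STAT genes fell and 0 rose against naive cells in div0 (where 54.9% of all genes were called, 39.6% lower) and likewise in div12 (66.9%, 47.5% lower), 4 rose and 0 fell in div12_48_u against div12 (41.3%, 27.7% higher), and medians were -0.42, -0.66 and 0.38 beside -0.24, -0.35 and 0.16 over all genes. These counts depend on the scaling. With median-ratio scaling 1 rose and 0 fell in div0, 2 rose and 3 fell in div12, and 2 rose and 1 fell in div12_48_u against div12, and with quantile normalization 1 and 1, 0 and 5, and 2 and 0.

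Interferon regulatory factors (IRFs) bind the same response element as the complex of STAT proteins and IRF9. Irf7, the factor that amplifies type I interferon production and is itself a classic interferon target, changed most. It was listed at 175 and 189 TPM in naive cells, 23.1 and 26.2 TPM in div0, 12.7 and 13.0 TPM in div12, 13.9 and 17.8 TPM in div12_48_u and 10.2 and 20.0 TPM in div12_48_d. The 8 cultured libraries lay far below both naive ones, with the highest of them in div0. The naive libraries were 1.08-fold apart in Irf7, beside 3.01-fold in the sum of myeloid markers. The sums of NK, erythroid and T cell markers (above) lay closer together in these libraries than the myeloid sum. The plasmacytoid dendritic cell sum is nearly all Ly6d and does not stand for its set. Of that set Siglech stood at 5.67 and 15.9 TPM and Cox6a2 at 5.27 and 18.4 TPM in naive cells. Ccr9 (9.51 and 9.76 TPM), Tcf4 (149 and 141 TPM) and Pacsin1 (37.0 and 45.2 TPM) lay closer together. The part of other cell types in the Irf7 level was not tested. Irf7 fell (difference -2.84 ± 0.26 in div0, adjusted p = 8.59e-05, and -3.72 ± 0.26 in div12, adjusted p = 1.14e-05), and the calls held in every alternative run. Its 3 listed transcripts were each lower in the 8 cultured libraries than in either naive library.

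Irf9 and Stat2 encode parts of the complex that binds the ISRE. Irf9 was listed at 245 and 284 TPM in naive cells, 155 and 166 TPM in div0, 155 and 135 TPM in div12, 131 and 144 TPM in div12_48_u and 106 and 142 TPM in div12_48_d. Both naive libraries lay above the 8 cultured ones. Irf9 fell by 0.71 ± 0.15 in div0 (adjusted p = 0.00415) and differed by -0.86 ± 0.15 in div12 (adjusted p = 0.000978), and both calls held in every alternative run. Stat2 stood at 171 and 218 TPM in naive cells, 134 and 147 TPM in div0, 144 and 118 TPM in div12, 156 and 148 TPM in div12_48_u and 107 and 124 TPM in div12_48_d. Its naive libraries were the highest of the 10 but its falls were small, -0.45 ± 0.14 in div0 (adjusted p = 0.0277) and -0.56 ± 0.14 in div12 (adjusted p = 0.00829). With median-ratio scaling neither Stat2 result was called (adjusted p = 0.186 and 0.178), nor was either without naive replicate 2 (adjusted p = 0.152 and 0.0541). The first was lost also without either div0 library (adjusted p = 0.138 and 0.0657) and the second without div12 replicate 2 (adjusted p = 0.0630).

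Irf1, an activator induced mainly by interferon gamma and by NF-kB signals, and Irf2, its antagonist, also fell. Irf1 went from 345 and 381 TPM in naive cells to 175 and 195 TPM in div0 and 136 and 131 TPM in div12, and stood at 154 and 162 TPM in div12_48_u and 117 and 125 TPM in div12_48_d. Naive libraries lay above the 8 cultured ones. The differences from naive were -0.97 ± 0.09 in div0 (adjusted p = 9.06e-05) and -1.44 ± 0.09 in div12 (adjusted p = 7.18e-06). Irf2 stood at 372 and 364 TPM in naive cells, 191 and 195 TPM in div0, 155 and 114 TPM in div12, 288 and 242 TPM in div12_48_u and 201 and 245 TPM in div12_48_d. Irf2 fell by 0.93 ± 0.16 in div0 and 1.46 ± 0.16 in div12 against naive (adjusted p = 0.00167 and 9.03e-05). It was lowest in div12 and higher again in both Phase II groups, rising by 0.99 ± 0.16 in div12_48_u (adjusted p = 0.00184) and by 0.74 ± 0.16 in div12_48_d (adjusted p = 0.0168). The latter call was lost without div12 replicate 2 (adjusted p = 0.0877) or div12_48_d replicate 2 (adjusted p = 0.132). Irf3, the constitutive partner of sensor signalling, rose in div12_48_u against div12 by 0.61 ± 0.11 (adjusted p = 0.00258), from 178 and 184 to 269.6 and 284 TPM. Irf2bp2, which encodes a corepressor that binds IRF2, rose in the same comparison by 0.93 ± 0.22 (adjusted p = 0.0106), a call lost without div12 replicate 2 (adjusted p = 0.0670) or div12_48_u replicate 1 (adjusted p = 0.0658).

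Irf4, Irf8 and Irf5 were the most abundant IRF genes. Irf4, the factor that B cells raise on activation and need for plasma cell fate, was listed at 1682 and 308 TPM in naive cells, 296 and 311 TPM in div0, 264 and 230.0 TPM in div12, 297 and 296 TPM in div12_48_u and 377 and 445 TPM in div12_48_d. One naive library thus stood 5.46-fold above the other. The fall of Irf4 in div12 against naive (-1.54 ± 0.61, adjusted p = 0.0495) rests on that library, since the difference was -0.32 without naive replicate 1 (adjusted p = 0.0541), and it was lost also without either library of div0, div12, div12_48_u or div12_48_d. Irf8, which acts in germinal centre and myeloid cells, stood at 755 and 799 TPM in naive cells, 823 and 767 TPM in div0, 667 and 653 TPM in div12, 1005 and 961 TPM in div12_48_u and 769.6 and 745 TPM in div12_48_d. The div12_48_u libraries were the highest and the div12 libraries the lowest. Irf8 rose in div12_48_u against div12 by 0.57 ± 0.07 (adjusted p = 0.000605) and fell in div12_48_d against div12_48_u by 0.38 ± 0.07 (adjusted p = 0.00749). Its fall in div12 against naive (-0.23 ± 0.07, adjusted p = 0.0175) turned to 0.15 with median-ratio scaling and was lost without naive replicate 2 or div12 replicate 2 (adjusted p = 0.0604 and 0.0662). Irf5 was called in none of the 6 group comparisons, with group means from 503 ± 19.6 (div12_48_d) to 647 ± 3.09 TPM (div0; SD, n = 2) and adjusted p from 0.182 to 0.948.

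The guanylate-binding proteins (GBPs) are large GTPases that interferon gamma induces in many cells and that coat the vacuoles of intracellular microbes. Of 5 listed Gbp genes 4 rose and 0 fell in div0, where 15.4% of all tested genes rose, and 4 rose and 1 fell in div12, where 19.4% rose. The median Gbp gene stood at 0.90 and 1.08, beside -0.24 and -0.35 over all genes. Gbp2, Gbp2b, Gbp3 and Gbp5 lie side by side on chromosome 3 (GRCm38.p6; chr3:142620663-142638008, chr3:142594816-142619179, chr3:142560016-142573213 and chr3:142496934-142522344 in the order named), while Gbp10 lies on chromosome 5 (chr5:105215699-105239533). Members of this family are alike in sequence and may hold reads of relatives.

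The promoters of the 4 genes on chromosome 3 each hold a match of the ISRE core, GAAANNGAAA. They are shown because these genes all rose in div0 and in div12 against naive cells. Elsewhere they did not all move alike. In div12 against div0 Gbp2 and Gbp2b rose, while Gbp3 (0.18) and Gbp5 (-0.10) were not called. Each line gives 80 bases of RefSeq's GRCm38.p6 promoter before the start used in the promoter table, 5′ to 3′ on the gene's strand, with the match on either strand in capitals. The windows are chr3:142620569-142620648, chr3:142594675-142594754, chr3:142559964-142560043 and chr3:142496734-142496813, all on the plus strand. That start can lie inside the gene's interval printed above, and 28 bases of the Gbp3 window do.
Gbp2: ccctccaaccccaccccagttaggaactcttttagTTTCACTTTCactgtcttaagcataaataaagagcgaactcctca
Gbp2b: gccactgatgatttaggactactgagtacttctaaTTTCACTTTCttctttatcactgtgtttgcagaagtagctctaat
Gbp3: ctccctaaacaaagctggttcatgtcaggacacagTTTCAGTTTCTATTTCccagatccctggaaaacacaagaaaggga
Gbp5: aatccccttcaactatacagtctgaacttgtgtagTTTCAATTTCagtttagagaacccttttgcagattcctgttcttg

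Gbp2 was listed at 40.9 and 52.3 TPM in naive cells, 82.6 and 114 TPM in div0, 160.2 and 153 TPM in div12, 83.5 and 87.3 TPM in div12_48_u and 100.3 and 111 TPM in div12_48_d. All 8 cultured libraries lay above both naive ones and div12 was the highest group. Gbp2 rose by 1.05 ± 0.16 in div0 (adjusted p = 0.00111) and by 1.74 ± 0.16 in div12 (adjusted p = 4.87e-05), and fell in div12_48_u against div12 by 0.87 ± 0.16 (adjusted p = 0.00390).

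Gbp2b, also called Gbp1 in older maps, was close to 0 in naive cells (0.153 and 0.236 TPM) and reached 21.4 and 26.6 TPM in div0, 49.9 and 46.1 TPM in div12, 14.1 and 7.87 TPM in div12_48_u and 15.8 and 14.9 TPM in div12_48_d. The div12 libraries were the highest of the 10 and the Phase II libraries lay below those of Phase I. Gbp2b rose by 4.38 ± 0.24 in div0 (adjusted p = 1.09e-05) and by 5.36 ± 0.24 in div12 (adjusted p = 2.84e-06), and fell against div12 by 2.08 ± 0.24 in div12_48_u (adjusted p = 0.000450) and by 1.58 ± 0.24 in div12_48_d (adjusted p = 0.00394). These 4 calls held in every alternative run.

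Gbp3 and Gbp5 rose less. Gbp3 went from 80.3 and 125 TPM in naive cells to 173 and 203 TPM in div0 (0.90 ± 0.19, adjusted p = 0.00456) and 216 and 210.2 TPM in div12 (1.08 ± 0.19, adjusted p = 0.00111), and the former call was lost with the most abundant of its 4 transcripts (adjusted p = 0.0877). Gbp5 went from 62.6 and 87.1 TPM to 134 and 144 TPM in div0 (0.90 ± 0.16, adjusted p = 0.00210) and 133 and 127 TPM in div12 (0.81 ± 0.16, adjusted p = 0.00223). In div12_48_d the Gbp5 libraries, at 71.8 and 88.7 TPM, were back in or near the naive range, a fall of 0.70 ± 0.16 against div12 (adjusted p = 0.0228) that was lost without either div12 library (adjusted p = 0.0882 and 0.0925) or div12_48_d replicate 1 (adjusted p = 0.109). Gbp10 was the one that fell in div12. It stood at 57.3 and 72.0 TPM in naive cells, 48.0 and 52.4 TPM in div0, 44.2 and 40.3 TPM in div12, 40.7 and 38.7 TPM in div12_48_u and 21.6 and 28.1 TPM in div12_48_d, each div12_48_d library below the 8 others. The fall was -0.59 ± 0.16 in div12 against naive (adjusted p = 0.00911), lost with median-ratio scaling (adjusted p = 0.159) and without naive replicate 2 or div12 replicate 2 (adjusted p = 0.0575 and 0.0552), and -0.75 ± 0.16 in div12_48_d against div12 (adjusted p = 0.0151), lost without either div12 library or div12_48_d replicate 1 (adjusted p = 0.0725, 0.0568 and 0.0725).

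Irgm1 belongs to another GTPase family of interferon gamma responses, the immunity-related GTPases, and regulates its relatives and autophagy. It was listed at 132 and 219 TPM in naive cells, 219 and 213 TPM in div0, 244 and 259 TPM in div12, 198 and 192 TPM in div12_48_u and 150.3 and 159 TPM in div12_48_d. Naive replicate 2 overlapped div0. Irgm1 rose in div12 against naive by 0.56 ± 0.19 (adjusted p = 0.0300) and fell in div12_48_d against div12 by 0.70 ± 0.19 (adjusted p = 0.0421). The rise was lost without naive replicate 1 (adjusted p = 0.0593) or either div12 library (adjusted p = 0.0722 and 0.118), and the fall without any one library of the cultured groups (adjusted p from 0.0679 to 0.177).

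**Figure D2:**
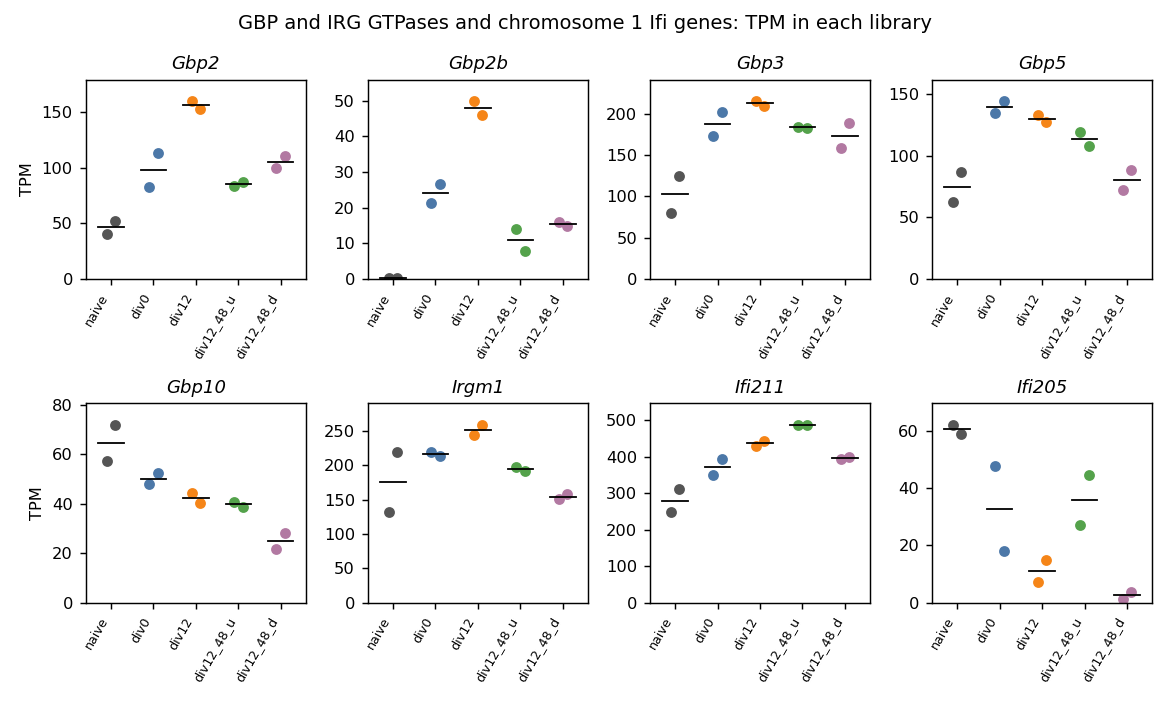
TPM (vertical axis, linear from 0, a scale for each gene) of the Gbp genes, Irgm1, Ifi211 and Ifi205 in the 5 groups. Points are the libraries and horizontal lines the mean of 2. The Gbp2 and Gbp2b points are highest in div12, and those of Gbp10 and Ifi205 are lowest in div12_48_d.

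Several antiviral effectors fell. Mx1 encodes a dynamin-like GTPase against influenza virus, of which C57BL/6 mice carry a defective allele, and it was listed as 1 coding and 1 noncoding transcript, summed here. Its level was 36.3 and 56.5 TPM in naive cells, 17.6 and 18.0 TPM in div0, 17.7 and 17.8 TPM in div12, 4.83 and 7.27 TPM in div12_48_u and 6.62 and 10.3 TPM in div12_48_d. The libraries fell into 3 levels without overlap, naive, Phase I and Phase II. Mx1 fell by 1.3 ± 0.27 in div0 (adjusted p = 0.00401) and by 1.31 ± 0.27 in div12 (adjusted p = 0.00250) against naive, and against div12 by 1.43 ± 0.27 in div12_48_u (adjusted p = 0.00359) and by 1.01 ± 0.27 in div12_48_d (adjusted p = 0.0364). The last call was lost without either library of div0, div12 or div12_48_d (adjusted p from 0.0565 to 0.162).

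Ifit2, whose product binds viral RNA and restrains translation, also fell. It was listed at 24.7 and 32.7 TPM in naive cells, 12.8 and 12.5 TPM in div0, 12.4 and 13.1 TPM in div12, 4.87 and 5.60 TPM in div12_48_u and 5.14 and 4.18 TPM in div12_48_d. Naive, Phase I and Phase II libraries did not overlap. The differences were -1.10 ± 0.17 and -1.10 ± 0.17 for div0 and div12 against naive (adjusted p = 0.00110 and 0.000640) and -1.14 ± 0.17 and -1.29 ± 0.17 for div12_48_u and div12_48_d against div12 (adjusted p = 0.00144 and 0.00250), and these 4 calls held in every alternative run.

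Isg15 encodes a ubiquitin-like protein that is joined to other proteins during interferon responses. Its promoter window is shown for its run of overlapping core matches, in capitals (chr4:156200852-156200931, minus strand, GRCm38.p6, RefSeq).
Isg15: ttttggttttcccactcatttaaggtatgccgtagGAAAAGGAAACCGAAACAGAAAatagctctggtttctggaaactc

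Isg15 stood at 62.8 and 76.3 TPM in naive cells, 46.0 and 40.7 TPM in div0, 37.5 and 45.1 TPM in div12, 27.1 and 21.7 TPM in div12_48_u and 20.4 and 26.5 TPM in div12_48_d. Naive, Phase I and Phase II libraries did not overlap. It fell by 0.67 ± 0.18 in div0 and 0.74 ± 0.18 in div12 against naive (adjusted p = 0.0136 and 0.00620), less relative to the median gene, and with median-ratio scaling neither was called (adjusted p = 0.0692 and 0.0822). The div0 call was lost also without naive replicate 2 or div0 replicate 2 (adjusted p = 0.0768 and 0.0896). In Phase II it fell again, by 0.74 ± 0.18 in div12_48_u and 0.79 ± 0.18 in div12_48_d against div12 (adjusted p = 0.0117 and 0.0207). These calls were lost without div12 replicate 2 (adjusted p = 0.0804 and 0.128), the first without div12_48_u replicate 2 (adjusted p = 0.0743) and the second without div12_48_d replicate 1 (adjusted p = 0.101).

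Oasl2, of the oligoadenylate synthetase family that senses double-stranded RNA, and Rtp4, a chaperone of cell surface receptors with antiviral roles, were highest in naive cells and lowest in div12_48_d. Oasl2 was listed at 23.4 and 39.7 TPM in naive cells, 8.80 and 10.2 TPM in div0, 8.14 and 6.70 TPM in div12, 5.43 and 5.77 TPM in div12_48_u and 2.61 and 2.72 TPM in div12_48_d. Rtp4 stood at 40.4 and 57.3 TPM in naive cells, 14.9 and 16.9 TPM in div0, 10.5 and 9.10 TPM in div12, 3.21 and 6.36 TPM in div12_48_u and 0.743 and 2.52 TPM in div12_48_d. For both genes the libraries of the 5 groups lay in the order naive, div0, div12, div12_48_u and div12_48_d without overlap. Against naive cells Oasl2 fell by 1.59 ± 0.23 in div0 (adjusted p = 0.000859) and 1.91 ± 0.23 in div12 (adjusted p = 0.000176). Rtp4 fell by 1.54 ± 0.37 in div0 (adjusted p = 0.00781, and 0.0529 without naive replicate 2) and 2.19 ± 0.37 in div12 (adjusted p = 0.000899).

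Neither gene was called between div12 and div0 (adjusted p = 0.426 for Oasl2 and 0.295 for Rtp4), nor between div12_48_u and div12 (adjusted p = 0.271 and 0.0676). In div12_48_d against div12 Oasl2 fell by 1.20 ± 0.23 (adjusted p = 0.0116), a call lost without div12 replicate 1 or either div12_48_d library (adjusted p = 0.0654, 0.0534 and 0.0726), and Rtp4 by 2.12 ± 0.37 (adjusted p = 0.00702).

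The Ifitm genes encode small membrane proteins that block entry of enveloped viruses. Ifitm3 had the largest fall of any member, from 62.0 and 190.0 TPM in naive cells to 3.90 and 3.04 TPM in div0 and 3.39 and 2.95 TPM in div12, a difference of -4.62 ± 0.42 and -4.72 ± 0.42 (adjusted p = 8.45e-05 and 3.84e-05). It stayed at 1.57 and 1.99 TPM in div12_48_u and 2.41 and 2.43 TPM in div12_48_d. The naive libraries were 3.06-fold apart in Ifitm3, replicate 2 the higher, beside 3.01-fold in the sum of myeloid markers in the same direction, and the part of myeloid cells in the Ifitm3 level was not tested. Ifitm2, its neighbour on chromosome 7, was listed at 51.0 and 84.4 TPM in naive cells, 33.9 and 21.7 TPM in div0, 33.2 and 38.9 TPM in div12, 17.2 and 13.9 TPM in div12_48_u and 40.5 and 29.6 TPM in div12_48_d. The div12_48_u libraries were the lowest of the 10. Ifitm2 fell in div0 against naive by 1.24 ± 0.29 (adjusted p = 0.00678, and 0.0558 without div0 replicate 2) and in div12_48_u against div12 by 1.17 ± 0.29 (adjusted p = 0.0122, but 0.0749 without div12 replicate 2 and 0.0719 without div12_48_u replicate 2).

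Ifih1 encodes MDA5, a sensor of long double-stranded RNA in the cytosol. It stood at 6.79 and 12.3 TPM in naive cells, 7.79 and 8.11 TPM in div0, 11.1 and 10.4 TPM in div12, 6.18 and 5.49 TPM in div12_48_u and 12.2 and 11.2 TPM in div12_48_d. It was lowest in div12_48_u, with a fall of 0.78 ± 0.23 against div12 (adjusted p = 0.0269) that was lost without any one library of those groups (adjusted p from 0.0741 to 0.110).

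**Figure D3:**
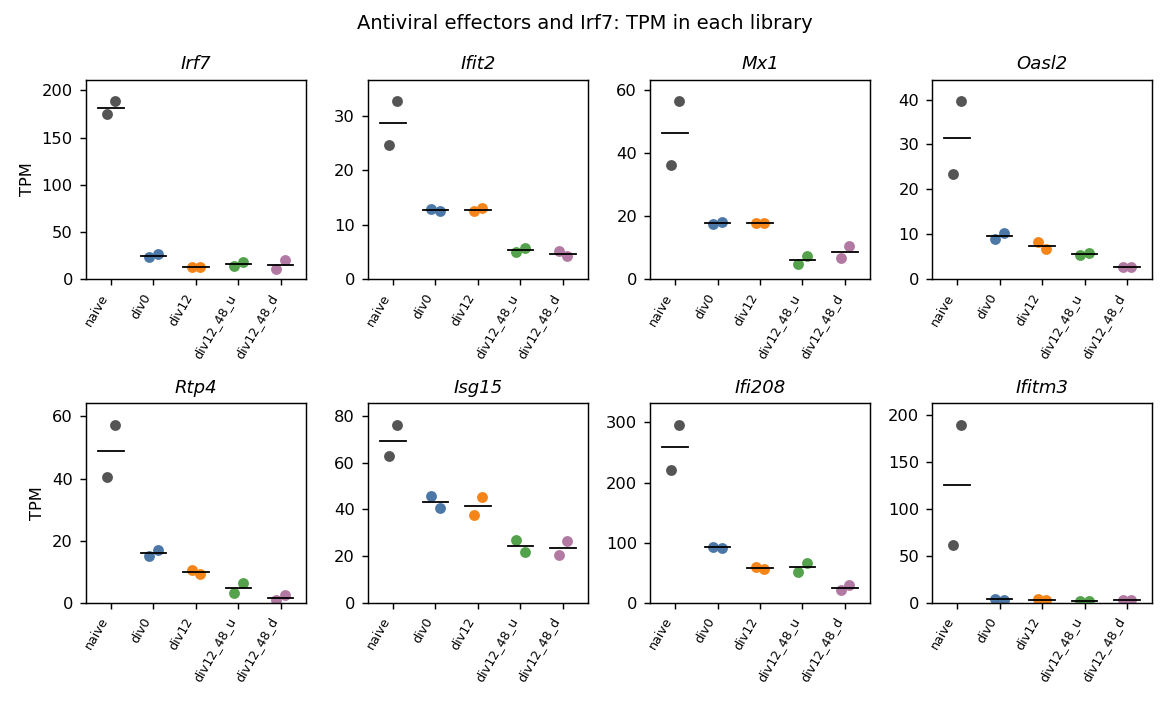
TPM (vertical axis, linear from 0, a scale for each gene) of Irf7 and 7 effector genes in the 5 groups. Points are the libraries and horizontal lines the mean of 2. The naive points are the highest in each panel, and Mx1, Ifit2, Oasl2, Rtp4 and Isg15 are lower in Phase II than in Phase I.

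The Ifi200 or PYHIN genes of chromosome 1 encode DNA-binding sensors and regulators of the AIM2-like receptor family. Of the 4 tested here, Ifi208, Ifi204, Ifi211 and Ifi205 (chr1:173673628-173698393, chr1:173747293-173767069, chr1:173896339-173913087 and chr1:174011998-174031755, GRCm38.p6), some rose and some fell. Relatives in this cluster are alike and may share reads. The promoter windows of Ifi205, Ifi208 and Ifi211 are shown because the genes moved apart while their windows share a run of bases at the core (chr1:174031845-174031924, minus strand, chr1:173673572-173673651, plus strand, and chr1:173913058-173913137, minus strand; GRCm38.p6, RefSeq, match in capitals).
Ifi205: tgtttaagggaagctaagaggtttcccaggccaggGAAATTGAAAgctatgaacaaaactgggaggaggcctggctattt
Ifi208: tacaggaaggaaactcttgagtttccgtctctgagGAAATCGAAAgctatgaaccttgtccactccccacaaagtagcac
Ifi211: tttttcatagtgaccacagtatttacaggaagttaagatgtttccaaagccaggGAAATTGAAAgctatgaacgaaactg

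The windows of Ifi205 and Ifi211 share an unbroken run of 25 bases that holds the whole core, and all 3 share a run of 13 that holds only its last 4. Of the Ifi208 and Ifi211 windows 24 and 30 bases lie inside the gene's annotated interval. Ifi208 fell in Phase I against naive cells, from 221 and 296 TPM in naive cells to 93.2 and 91.4 TPM in div0 (-1.46 ± 0.20, adjusted p = 0.000641) and 59.4 and 56.0 TPM in div12 (-2.13 ± 0.20, adjusted p = 5.14e-05). It was 50.5 and 66.8 TPM in div12_48_u and 20.5 and 29.4 TPM in div12_48_d, where both libraries were below the 8 others. Against div12 it fell in div12_48_d by 1.20 ± 0.20 (adjusted p = 0.00670), and these 3 calls held in every alternative run.

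Ifi211 rose instead. It was listed at 248 and 310.5 TPM in naive cells, 349 and 393 TPM in div0, 429 and 444 TPM in div12, 486 and 487 TPM in div12_48_u and 392 and 399.9 TPM in div12_48_d. All cultured libraries lay above both naive ones. The rise was 0.65 ± 0.11 in div12 (adjusted p = 0.000908) and 0.42 ± 0.11 in div0 (adjusted p = 0.0123, and 0.0952 without div0 replicate 2). Ifi204 stood at 117 and 137 TPM in naive cells, 130.4 and 132 TPM in div0 and 147 and 142 TPM in div12, with overlap between naive and div0, and was called in none of the 3 comparisons among naive, div0 and div12.

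Ifi205 was lower in the divided cells of each phase, but the Phase I difference (-1.41, div12 against div0) was not called. It stood at 62.1 and 59.0 TPM in naive cells, 47.6 and 18.0 TPM in div0, 7.19 and 15.0 TPM in div12, 27.3 and 44.6 TPM in div12_48_u and 1.36 and 3.84 TPM in div12_48_d. The div0 libraries differed widely, and the div12_48_d libraries were the lowest of the 10. Ifi205 fell in div12 against naive by 2.43 ± 0.52 (adjusted p = 0.00331). Its rise in div12_48_u against div12 (1.65 ± 0.52, adjusted p = 0.0338) was lost without div12 replicate 1, either div12_48_u library or either naive library (adjusted p = 0.184, 0.0616, 0.168, 0.0529 and 0.0529) and with both scalings (adjusted p = 0.0645 and 0.0845).

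The Parp genes encode ADP-ribosyl transferases, of which PARP1, PARP2 and PARP3 act in DNA repair and PARP14 in immune signalling. Parp1 was abundant and was called in none of the 6 comparisons, with group means from 533 ± 121 (div12) to 627 ± 7.27 TPM (div12_48_u; SD, n = 2). Parp2 held group means from 151 ± 0.292 (div12_48_d) to 182 ± 5.88 TPM (naive), and its fall in div0 (-0.23 ± 0.08, adjusted p = 0.0335) turned to 0.04 with median-ratio scaling and was lost without naive replicate 2 or either div0 library (adjusted p = 0.0785, 0.110 and 0.152). Parp3 rose in div12_48_u against div12 by 0.75 ± 0.09 (adjusted p = 0.000457), from 104 and 108 to 190.1 and 169 TPM, a call lost with the most abundant of its transcripts (adjusted p = 0.0790). Parp14 was listed at 149.8 and 174 TPM in naive cells, 109 and 114 TPM in div0, 91.2 and 81.4 TPM in div12, 80.8 and 65.8 TPM in div12_48_u and 53.97 and 54.1 TPM in div12_48_d. In this order of listing, which is not one of time alone, each group's libraries lay below those of the group listed before it, without overlap. Parp14 fell by 0.53 ± 0.12 in div0 (adjusted p = 0.00716) and differed by -0.90 ± 0.12 in div12 against naive (adjusted p = 0.000311), calls that held in every alternative run. It fell in div12_48_d against div12 by 0.66 ± 0.12 (adjusted p = 0.00942), which was lost without div12 replicate 1 or div12_48_d replicate 2 (adjusted p = 0.0547 and 0.0642).

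TRIM proteins are ubiquitin ligases, some of them antiviral, and 11 of the 16 listed were tested. Trim25, the ligase of the RNA sensor RIG-I, fell from 341 and 285 TPM in naive cells to 112 and 114 TPM in div0 (-1.45 ± 0.19, adjusted p = 0.000484) and stood at 109 and 86.1 TPM in div12, 109 and 121 TPM in div12_48_u and 99.3 and 148 TPM in div12_48_d. Both naive libraries were above the 8 cultured ones, and the difference in div12 was -1.68 ± 0.19 (adjusted p = 0.000122). Trim7, a ligase first described as a partner of glycogenin, was abundant in naive and undivided cells and lower in divided ones, at 456 and 479 TPM in naive cells, 464 and 414 TPM in div0, 212 and 246 TPM in div12, 445 and 384 TPM in div12_48_u and 207 and 214 TPM in div12_48_d. The 4 libraries of divided cells lay between 207 and 246 TPM and the other 6 between 384 and 479 TPM. Trim7 fell in div12 against naive by 1.03 ± 0.11 (adjusted p = 7.34e-05) and rose in div12_48_u against div12 by 0.85 ± 0.11 (adjusted p = 0.000646), while div0 differed from naive by -0.09 ± 0.11 (adjusted p = 0.491). Trim28, the KAP1 corepressor of transposable elements, was called in none of the 6 comparisons, with group means from 296 ± 39.0 (naive) to 418 ± 23.6 TPM (div12_48_d). Of the 11 tested Trim genes 0 rose and 3 fell in div0 against naive (27.3%), and 0 and 4 in div12 (36.4%). Over all tested genes 39.6% and 47.5% fell, so falls were not more common among the Trim genes. Medians were -0.31 and -0.28 beside -0.24 and -0.35 over all genes.

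The remaining members moved little or were low. Isg20l2, a nucleolar exonuclease that shares only its prefix with Isg15, went from 142 and 143 TPM in naive cells to 117 and 96.9 TPM in div12 (-0.42 ± 0.10, adjusted p = 0.00547), a fall that was not called with median-ratio scaling (adjusted p = 0.671). In all, 11 tested members were called in none of the 6 comparisons, Ifitm7, Irf2bpl, Irf5, Parp1, Stat5a, Trim13, Trim27, Trim28, Trim59, Trim62 and Trim63, with library values from 0.580 TPM to 648.9 TPM. The 8 members that did not pass the filter reached at most 2.53 TPM in any library.

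Divided cells were set against undivided cells of the same phase. In Phase I 2 members rose and 4 fell (6 of 53, where 8.76% of all tested genes were called, 3.68% higher and 5.08% lower). In Phase II 2 rose and 15 fell (17 of 53, where 25.6% were called, 12.2% higher and 13.4% lower). These comparisons share no library. The 4 members that fell in Phase I, Irf1, Parp3, Stat6 and Trim7, also fell in Phase II, 4 of the 4 called lower in Phase I and 4 of the 15 called lower in Phase II, and 31 of 53 members (58.5%) were below 0 in both. Over all tested genes 46.4% were below 0 in both, and of the 225 that fell in Phase I 171 (76%) fell also in Phase II, 28.8% of the 594 that fell there, so shared falls were common among all genes. Medians were -0.13 and -0.16 over the members and -0.07 and -0.08 over all genes.

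Trim7 had the firmest difference of the 4, -0.94 ± 0.11 in Phase I (adjusted p = 0.0109) and -0.97 ± 0.11 in Phase II (adjusted p = 0.000998), and leaving out div0 replicate 1 gave 0.147 for the former, div0 replicate 2 0.0571. Stat6 fell by 0.43 ± 0.08 and 0.47 ± 0.08 (adjusted p = 0.0203 and 0.00398), Irf1 by 0.47 ± 0.09 and 0.38 ± 0.09 (adjusted p = 0.0257 and 0.0185) and Parp3 by 0.37 ± 0.09 and 0.58 ± 0.09 (adjusted p = 0.0394 and 0.00333). In Phase I the calls of Stat6, Irf1 and Parp3, and the rises of Gbp2 (0.69 ± 0.16, adjusted p = 0.0416) and Gbp2b (0.98 ± 0.24, adjusted p = 0.0428), were lost without any one library of div0 or div12, with adjusted p from 0.0504 (Stat6 without div12 replicate 1) to 0.280 (Gbp2b without div0 replicate 1). The Parp3 calls of both phases were lost with the most abundant transcript (adjusted p = 0.350 and 0.173), and that of Phase I with median-ratio scaling (adjusted p = 0.0933). The number of members called in Phase I was 0 without div0 replicate 1 or 2, 2 without div12 replicate 1 and 1 without div12 replicate 2. The Phase II call of Irf1 was lost without either div12_48_u library or div12_48_d replicate 1 (adjusted p = 0.0605, 0.0911 and 0.125).

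In Phase II the largest fall was that of Ifi205 (-3.41 ± 0.52, adjusted p = 0.00347), followed by Ifi208 (-1.21 ± 0.20, adjusted p = 0.00495), Rtp4 (-1.17 ± 0.37, adjusted p = 0.0481), Trim7 and Oasl2 (-0.85 ± 0.23, adjusted p = 0.0311). Ifi204 fell by 0.56 ± 0.10 (adjusted p = 0.00653, and 0.0570 without div12_48_d replicate 1). The rises were those of Ifitm2 (1.11 ± 0.29, adjusted p = 0.0244) and Ifih1 (0.90 ± 0.23, adjusted p = 0.0252). Among these, Ifi205 and Ifi208 kept their calls in every alternative, while Ifih1 and Oasl2 lost theirs when a single library of Phase II was left out (adjusted p from 0.0699 to 0.143 and from 0.0907 to 0.15), Oasl2 also without either div0 library (adjusted p = 0.0544 and 0.0544), Ifitm2 without either div12_48_u library or div12_48_d replicate 1 (adjusted p = 0.0665, 0.118 and 0.167) and Rtp4 without 8 of the 10 libraries (adjusted p from 0.0556 to 0.296). Gbp10 fell by 0.67 ± 0.16 (adjusted p = 0.0173), a call lost without either div12_48_u library or div12_48_d replicate 1 (adjusted p = 0.0873, 0.0604 and 0.128). The count of 17 was 9 without either div12_48_u library, 6 without div12_48_d replicate 1 and 11 without div12_48_d replicate 2.

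Limma called 0 of the 53 members, and 0% of all genes, in the test of the difference between these division contrasts. At an unadjusted p under 0.05 there were 3 members, Ifi205 (-2.0 ± 0.74), Ifi204 (-0.70 ± 0.14) and Ifi211 (-0.53 ± 0.15), and 438 genes in all. With median-ratio scaling 1 member was called, Ifi204. A call in one phase and not in the other is therefore not shown to be a difference between phases.

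**Figure D4:**
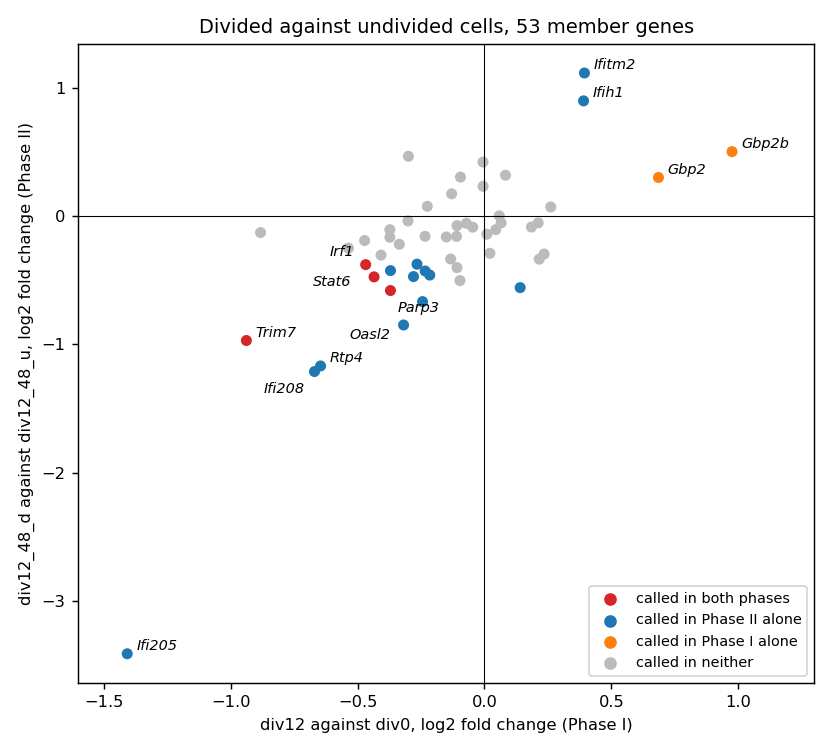
Each point is one of the 53 tested members, placed by its log2 difference between divided and undivided cells in Phase I (horizontal) and Phase II (vertical), on the log2(TPM + 1) scale. Colours give the calls, and the points of Trim7, Irf1, Stat6 and Parp3, called in both, lie to the lower left, while Ifi205 lies lowest at -3.41 in Phase II.

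The other genes of interferon signalling were read from lists. Of 8 listed interferons and receptors 6 were tested, and 1 rose and 4 fell in div0, and 1 and 5 in div12, against naive, where 54.9% and 66.9% of all genes were called. With median-ratio scaling 1 rose and 2 fell, and 1 and 3. The gene with the largest fall was Ifng, for interferon gamma, at 3.86 and 5.67 TPM in naive cells and at most 1.39 TPM in cultured ones (-2.33 ± 0.31 in div0, adjusted p = 0.000497). NK cell markers moved the same way (above), and their part in Ifng was not tested. Ifnar1, a chain of the type I interferon receptor, went from 209 and 191 TPM in naive cells to 129 and 121 TPM in div0 (-0.67 ± 0.10, adjusted p = 0.000891) and 108 and 107 TPM in div12 (-0.89 ± 0.10, adjusted p = 0.000117), and rose in div12_48_u against div12 by 0.55 ± 0.10 (adjusted p = 0.00338). Il10rb, the chain shared by the receptors of type III interferon and interleukin 10, fell in div12 against naive by 1.08 ± 0.14 (adjusted p = 0.000268) and rose in div12_48_u by 0.83 ± 0.14 (adjusted p = 0.00258). The median gene of these 6 stood at -0.46 in div0 and -0.70 in div12, and the median of all tested genes at -0.24 and -0.35.

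Among 10 receptor kinases and feedback genes 1 rose and 4 fell in div0 (median -0.19), 0 and 6 in div12 (median -0.42) against naive, beside 54.9% and 66.9% of all genes called, 6 rose and 0 fell in div12_48_u against div12 (median 0.43, beside 0.16 over all genes, where 41.3% of all genes were called), and 0 rose and 4 fell between div12_48_d and div12_48_u, where 25.6% were called. With median-ratio scaling the counts were 2 and 1, 2 and 3, 3 and 0, and 0 and 3. Jak1, the kinase of the interferon receptors, fell in div12 against naive by 0.84 ± 0.10 (adjusted p = 0.000128), rose in div12_48_u against div12 by 0.68 ± 0.10 (adjusted p = 0.00122) and fell in div12_48_d against div12_48_u by 0.66 ± 0.10 (adjusted p = 0.00311), the levels being 720.5 and 651 TPM in naive cells, 398 and 364 TPM in div12, 610.3 and 611 TPM in div12_48_u and 358 and 414 TPM in div12_48_d. Socs3, a feedback inhibitor, went from 106 and 46.3 TPM in naive cells to 2.12 and 2.49 TPM in div0 (-4.43 ± 0.34, adjusted p = 3.86e-05).

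Among 20 genes of nucleic acid sensing 3 rose and 8 fell in div0 (median -0.29), and 2 and 12 in div12 (median -0.50). These shares, 11 and 14 of 20, were near those of all genes (54.9% and 66.9%), and median-ratio scaling gave 4 and 4, and 3 and 5. The largest fall was that of Tlr8, an endosomal RNA receptor, from 2.40 and 9.54 TPM in naive cells, replicate 2 the higher as in the myeloid markers, to 0.0611 and 0.0311 TPM in div0 (-2.52 ± 0.43, adjusted p = 0.00182). The part of myeloid cells in Tlr8 was not tested. Tmem173, which encodes STING, the adaptor of cytosolic DNA sensing, went from 179.7 and 277 TPM in naive cells to 525 and 523 TPM in div0 (1.23 ± 0.20, adjusted p = 0.00153) and 515 and 539 TPM in div12 (1.24 ± 0.20, adjusted p = 0.000850). Against div12 Tmem173 fell by 0.67 ± 0.20 in div12_48_u (adjusted p = 0.0298) and differed by -0.83 ± 0.20 in div12_48_d (adjusted p = 0.0295), calls that were lost without either div12 library (adjusted p = 0.0827, 0.121, 0.0874 and 0.136), the first without div12_48_u replicate 2 (adjusted p = 0.173) and the second without either div12_48_d library (adjusted p = 0.0516 and 0.200), among others. Tlr3, the endosomal receptor of double-stranded RNA, fell by 1.33 ± 0.21 in div0 (adjusted p = 0.00126) and 1.96 ± 0.21 in div12 (adjusted p = 9.74e-05). Dhx58, the RNA sensor LGP2, fell in div12_48_u against div12 by 0.68 ± 0.12 (adjusted p = 0.00335). Among 15 other interferon-induced genes 0 rose and 10 fell in div0 (median -0.71), and 0 and 13 in div12 (median -0.91), beside 39.6% and 47.5% of all genes lower. Median-ratio scaling gave 1 and 7, and 1 and 8. Samhd1, a nucleotide hydrolase that restricts viruses, went from 923 and 1047 TPM in naive cells to 257 and 256 TPM in div0 (-1.93 ± 0.18, adjusted p = 9.32e-05) and 195 and 174 TPM in div12 (-2.41 ± 0.18, adjusted p = 1.61e-05), then rose in div12_48_u by 1.18 ± 0.18 (adjusted p = 0.00161). Herc6, the mouse ligase that attaches ISG15, fell in div12_48_d against div12 by 0.73 ± 0.11 (adjusted p = 0.00369).

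Among 16 genes of MHC class I presentation 1 rose and 3 fell in div0 (median -0.07), and 4 and 6 in div12 (median -0.13), 4 and 10 of 16 called beside 54.9% and 66.9% of all genes. With median-ratio scaling 5 rose and 1 fell in div0, and 8 and 2 in div12. H2-D1, a class I heavy chain, had the largest fall in div12 against naive (-0.77 ± 0.10, adjusted p = 0.000200). Psmb9, an immunoproteasome subunit, rose in div12 against naive by 0.72 ± 0.10 (adjusted p = 0.000303), while Tap2, of the peptide transporter, fell by 0.76 ± 0.10 (adjusted p = 0.000259). Calr and Canx, chaperones of class I folding, fell in div12_48_u against div12 by 0.82 ± 0.14 and 0.79 ± 0.10 (adjusted p = 0.00255 and 0.000555). Nlrc5, the activator of class I genes, rose in div12_48_d against div12 by 0.76 ± 0.11 (adjusted p = 0.00287), from 120.4 and 106 to 179 and 206 TPM. Of the 73 pathway results with the largest changes 37 held in every alternative run, among them all those named in these paragraphs but the Phase II falls of Tmem173 and, as it was named after its values were seen and is not among the 73, Ifng.

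The ISRE core was searched on both strands of RefSeq's GRCm38.p6 promoters, 250 bases before to 50 after each start. The table holds 61 promoters of 51 members, of which 16 held the core (26.2%), beside 3.44% of all 32851 promoters of that length and 3.51% of those of tested genes. The other 10, among them Gbp10, Ifi204, Mx1, Parp14 and Rtp4, had no entry. The 16 members were Gbp2, Gbp2b, Gbp3, Gbp5, Ifi205, Ifi208, Ifi211, Ifih1, Ifitm2, Ifitm3, Irf2, Irgm1, Isg15, Stat2, Stat4 and Trim21, and in 13 of them a match lay before the start. The looser GAS core, TTCNNNGAA, occurred in 8 of 61 member promoters (13.1%), beside 8.30% of all promoters. A match describes the letters and is not a measured binding site.

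Members with the core moved both ways. Of 16 with it 5 rose and 7 fell in div0 against naive, and of 30 tested members with an entry but no core 0 rose and 12 fell. In div12 against naive the counts were 6 and 8 with the core and 0 and 17 without. In div12_48_u against div12 they were 3 and 5 with it, and 8 and 1 without. Over all tested genes 15.4% rose and 39.6% fell in div0, 19.4% and 47.5% in div12, and 27.7% and 13.6% in div12_48_u. Over the 155 tested genes with the core, members included, the shares were 13.5% and 49% in div0, 19.4% and 52.9% in div12, and 25.2% and 12.3% in div12_48_u. The absence of rises without the core depends on the scaling. With median-ratio scaling 6 rose and 4 fell with the core in div0, and 7 and 7 without, and in div12 the counts were 7 and 4 with it, and 6 and 11 without. In div12_48_u they were 1 and 7 with it, and 7 and 2 without. Quantile normalization gave 8 and 7 without the core in div0, and 4 and 10 in div12. The 5 members that rose in div0 were Gbp2, Gbp2b, Gbp3, Gbp5 and Ifi211, which lie in 2 gene clusters, so they are not independent, and no test of these counts was made.

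**Figure D5:**
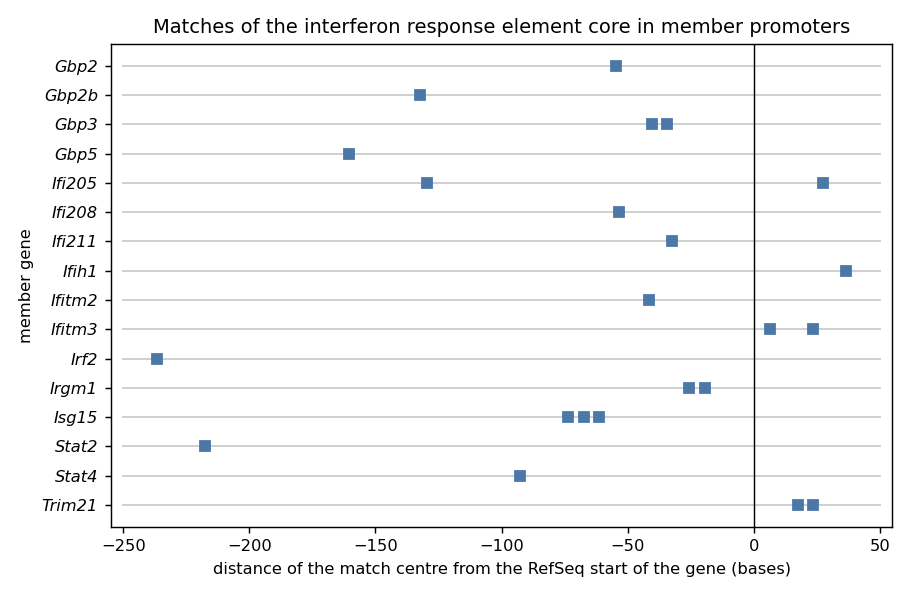
Centres of ISRE core matches (squares) along the promoters (grey lines, distance from the RefSeq start in bases) of the 16 members that hold one. Matches of Gbp2, Gbp2b, Gbp3, Gbp5, Ifi205, Ifi208, Ifi211 and Isg15 lie before the start, with 1 further match of Ifi205 after it.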

How the data were processed

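RNA of 10 libraries was sequenced after ribosomal RNA depletion from 100 ng of total RNA, as 50 bp single-end reads, per the labels' protocols. Tools named in the submitters' processing notes are DESeq2, featureCounts, HISAT2, HTSeq and Salmon, with the build mm10, and what each did, and with or without strand, is not given in the sources used here. The authors deposited 1 table of TPM by RefSeq transcript, in which each library sums to 1000000. Read depth cannot be had from TPM, so no counting interval is given. Of 13128 transcripts with values, 63 without a symbol (0.204 to 0.379% of TPM) were left out and 13065 were summed into 6610 genes by the symbol in the table. Reads shared by near-identical genes may be split between them.

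The 4427 genes that reached 1 TPM in 2 or more libraries were tested on log2(TPM + 1) with limma 3.58.1 (R 4.3.3), by group, over all 10 libraries, with a trended prior, two-sided, and Benjamini-Hochberg adjustment over 4427 genes at 0.05. The fit was tested on simulated data. Sums and figures were made with numpy 2.4.6, pandas 2.3.3 and matplotlib 3.10.9 under Python 3.11.15. Alternatives were pseudocounts of 0.1 and 5, no filter, a filter of 5 TPM, median-ratio and quantile scaling, the compared groups alone, no naive group, a replicate block, no trend, the most abundant transcript and each library left out.

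Members named are, per comparison, up to 6 with the largest rise and 6 with the largest fall among called genes of at least 5 TPM without overlap, the 2 most abundant of each family, and some fixed by name (Irf1, Irf4, Irf7, Irf8, Isg15, Parp1 and Trim28 among them). Some members are not reported here by name, though the counts include them. Called results of further members (Irf9, Stat2, Parp14, Gbp10, Irf2 and Trim25 against naive cells, among others) were added after their values were seen. Of each pathway list, some of the called genes with the largest change are named. The members and lists were chosen with earlier results of these data known.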

Additional observations from a re-analysis of the deposited data

How the results depend on the processing

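Of 87 results for single members named by the rule, 44 kept their call and direction in every alternative, 40 lost the call in at least 1 and 3 changed direction, each with median-ratio scaling: Irf8 in div12 against naive (0.15), Parp2 in div0 (0.0388) and Stat6 in div0 (0.0420). Of 32 other called results of members 9 kept call and direction and 1 reversed with median-ratio scaling, Parp3 in div12 against naive (0.0550). Of 73 pathway results 37 kept their call in every alternative and 0 changed direction. The counts of members called moved by over 1.5 times in div12 against div0 with no filter (3) and no trend (2), in div12_48_d against div12_48_u with the most abundant transcript (11), and in the difference between divisions with median-ratio scaling (1). The cause was not tested.

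With each library left out in turn, the members called ranged from 19 to 34 in div0 against naive, 30 to 38 in div12 against naive, 0 to 9 in div12 against div0, 13 to 22 in div12_48_u against div12, 6 to 21 in div12_48_d against div12, 6 to 22 in div12_48_d against div12_48_u and 35 to 43 in the F test, and stayed at 0 for the difference between divisions. A group left with 1 library is assumed to vary like the others.

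Whether libraries of the same replicate number share a pool or culture is not given in the sources used here. The correlation of same-numbered deviations between groups ran from -0.24 (div0 and div12) to 0.20 (div12_48_u and div12_48_d). With 2 libraries a group that check cannot decide it, and the main fit used no pairing. With a replicate block the counts were 27, 36, 4, 19, 15 and 16 for the 6 comparisons in the order above, 0 for the difference and 39 for the F test.

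Depth is unknown, so members near 1 TPM, such as Gbp2b in naive cells and Rtp4 in div12_48_d, have a precision set by 2 libraries alone.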

Other observations

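Transcript values showed which of a member's RefSeq models carried its level, as an estimate that the split of shared reads can move. Ifi211 was listed as 2 transcripts of like level in some groups. One stood at 169 and 164 TPM in naive cells, 347 and 327 TPM in div12_48_u and 193 and 200 TPM in div12_48_d. The other stood at 79.3 and 147 TPM in naive cells, 139 and 160.4 TPM in div12_48_u and 199.6 and 200.3 TPM in div12_48_d. The drop between the Phase II groups was thus seen in the first and not in the second, and no test was made on transcripts.

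In Mx1 the noncoding model was the more abundant in all 10 libraries, at 27.6 and 45.7 TPM against 8.69 and 10.8 TPM for the coding one in naive cells. Of the 3 Irf7 models the most abundant in naive cells went from 103 and 98.7 TPM to 18.1 and 14.8 TPM in div0 and 4.24 and 5.45 TPM in div12. The interferon beta gene Ifnb1 was listed at 0 in all 10 libraries.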
